A study of Mus musculus with 11 samples.

Results

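Cortical interneurons are the local inhibitory neurons of the cerebral cortex, and 10 genes that mark them were followed here across an oligodendrocyte lineage knockout study. The genes were taken by symbol from the deposited table, and all 10 were found among its 16228 genes and passed the filter on low values. They comprise the enzymes that make the transmitter GABA (Gad1 and Gad2), a lineage transcription factor (Lhx6), a calcium buffer (Pvalb), the neuropeptides Sst, Vip, Npy and Cck, the secreted glycoprotein Reln and the serotonin receptor subunit Htr3a. RNA from cortical punches of mice at postnatal day 30 was sequenced in bulk, as 11 libraries that the series describes as biological replicates.

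Of these, 4 libraries carried Ng2 Cre+ with Prkci f/f (Prkci cKO) and 3 carried Ng2-Cre+ with Prkcz f/f (Prkcz cKO). The 4 controls list no Cre: the label of replicates 1 and 2 is Pkcz f/+, and that of replicates 3 and 4 is Pkcz f/f. A Cre-bearing control and a floxed Prkci control are both missing from this set, so the effect of Cre or of the line cannot be told apart from that of the kinase. Treatment is given as none for every animal. Prkci and Prkcz encode atypical protein kinases C, enzymes of cell polarity. Ng2-Cre is a recombinase driven from the gene of the NG2 proteoglycan, which oligodendrocyte precursors and pericytes make.

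As background, cortical interneurons arise in the ganglionic eminences of the embryonic forebrain and migrate into the cortex. Those of the medial eminence depend on Lhx6 and later divide mainly into a fast-spiking class that makes parvalbumin and a class that makes somatostatin. Those of the caudal eminence express the serotonin receptor subunit Htr3a, and some of them make Vip, Reln, Npy or Cck. Some of these markers are not confined to interneurons: pyramidal cells also express Cck, and Cajal-Retzius cells express Reln. The values come from whole tissue, so fewer cells of a type and less RNA per cell cannot be told apart.

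Values are the authors' normalized expression signal, whose scaling is not stated, and each column sums to about the same total. An effective depth estimated from the steps between low values was 14810000 reads in Prkcz cKO replicate 3 and 20620000 to 28170000 reads in the other libraries. The targeted genes were examined first. Prkci averaged 67.0 in Prkci cKO and 87.8 in controls, which is -0.39 on the log2 scale (limma, SE 0.045, adjusted p = 9.84e-04). Prkcz averaged 278 in Prkcz cKO and 323 in controls, a difference of -0.22 on the log2 scale (limma, SE 0.055) that missed the 0.05 threshold (adjusted p = 0.0966). The excitatory cortical marker Slc17a7, a vesicular glutamate transporter, averaged 2163 in Prkci cKO, 2125 in Prkcz cKO and 2017 in controls. Of the 14 excitatory markers listed 0 passed in any comparison (limma; 3, 1 and 4 at an unadjusted p under 0.05). Their log2 change was positive for 12 in Prkci cKO (median 0.10) and for 7 in Prkcz cKO (median -0.01), each against controls.

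None of the 10 interneuron genes passed the threshold in any comparison. In Prkci cKO against controls, 0 of 10 were called at an adjusted p under 0.05 (limma, adjusted over 14330 genes), where 1.61% of all genes tested were (0.0977% higher and 1.51% lower). The counts were 0 of 10 in Prkcz cKO against controls, with 0.649% of all genes (0.0279% higher and 0.621% lower), and 0 of 10 between the knockouts, with 0.3% (0.237% higher in Prkci cKO and 0.0628% lower). At an unadjusted p under 0.05 there were 2, 1 and 2 members, beside 12.1%, 15% and 16% of all genes. These shares also belong beside the unadjusted counts given for each gene list. Groups did not overlap for 1 member in Prkci cKO against controls (Htr3a, above), beside 3.18% of all genes above and 5.32% below. They did not for 1 in Prkcz cKO against controls (Gad1, above), beside 5.16% above and 6.72% below, and for 2 between the knockouts (Reln above and Gad1 below in Prkci cKO), beside 7.36% above and 6.43% below. The median log2 change of the 10 was 0.04 in Prkci cKO and 0.11 in Prkcz cKO, each against controls, beside 0.00 and -0.01 over all genes tested. Both knockouts were compared with the same controls, so these medians are not independent. The median in Prkcz cKO was 0.06 without Prkcz cKO replicate 3 or against the Pkcz f/f controls alone. It was also 0.06 with scaling to pan-neuronal genes, but that scaling moved the median over all genes tested to -0.05. The median in Prkci cKO was -0.01 without Control replicate 4.

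**Figure D1:**
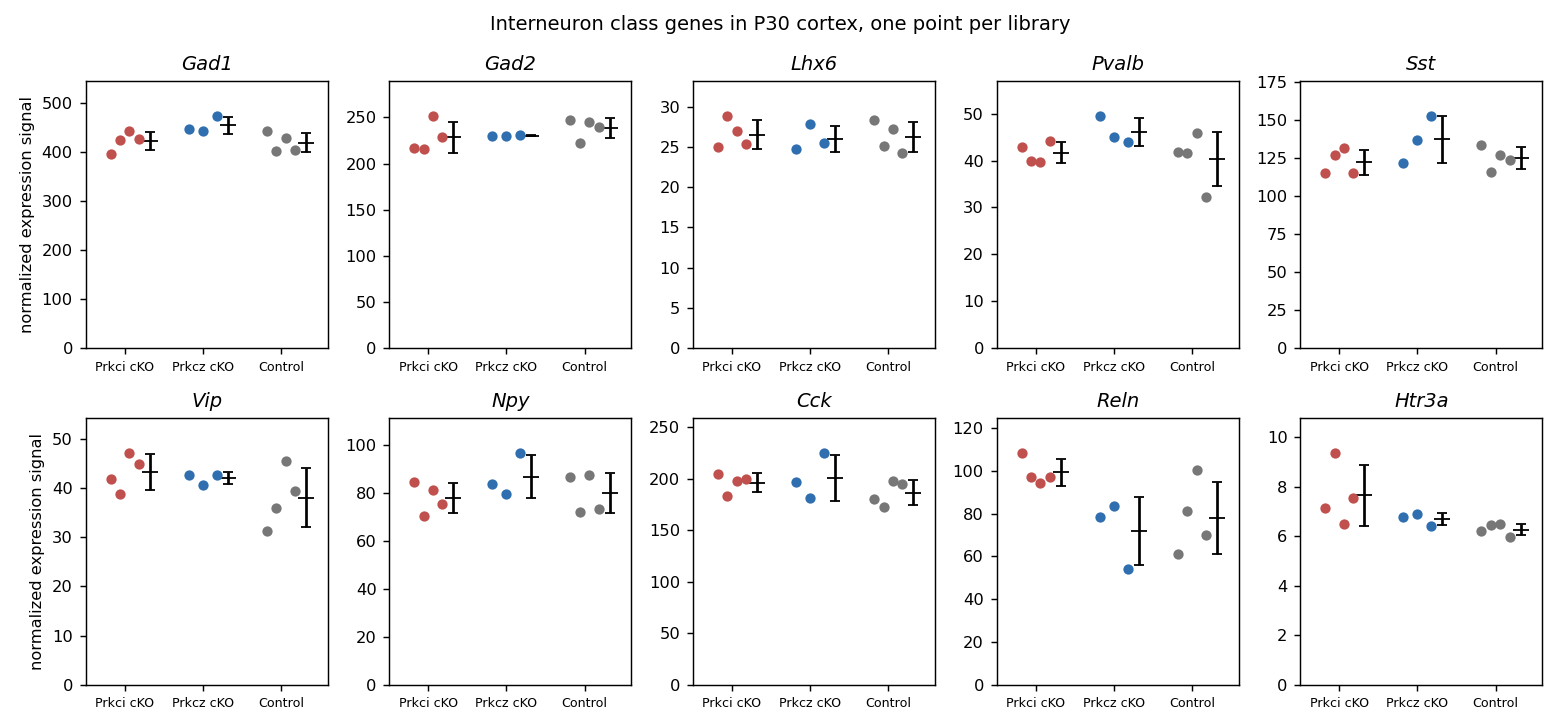
Normalized expression signal (vertical axis, from 0) of each of the 10 genes in every library, grouped as Prkci cKO (n = 4), Prkcz cKO (n = 3) and Control (n = 4); the black bar is the mean ± SD. The groups overlap for most genes, Reln spreads widely within Prkcz cKO and Control, and Htr3a is highest in Prkci cKO replicate 2 at 9.38.

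The enzymes of GABA synthesis come first. Gad1, on chromosome 2 (70553072 to 70602014, GRCm38), encodes the larger glutamate decarboxylase, which supplies most of the transmitter. Its signal was 396, 424, 442 and 426 in Prkci cKO, 446, 442 and 473 in Prkcz cKO, and 442, 401, 429 and 404 in controls. Prkci cKO replicate 1 had the lowest value of all libraries, and the other 3 Prkci cKO libraries lay among the controls. All 3 Prkcz cKO libraries lay above every control, replicates 1 and 2 only just. Means were 422 ± 18.9 (SD, n = 4) in Prkci cKO, 454 ± 16.8 (SD, n = 3) in Prkcz cKO and 419 ± 19.7 (SD, n = 4) in controls. The change was 0.7% in Prkci cKO (95% interval -6.2% to 8.2%, limma adjusted p = 0.958). It was 8.4% in Prkcz cKO (interval 0.34% to 17.1%, adjusted p = 0.317), with no overlap with controls, a pattern shared by 11.9% of all genes. Intervals here and below are those of the limma fit and are not adjusted for the number of genes.

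Gad2, on the same chromosome (22622205 to 22693874), encodes the smaller decarboxylase, which is concentrated at nerve terminals. Its signal was 217, 215, 252 and 229 in Prkci cKO, 230, 230 and 231 in Prkcz cKO, and 247, 222, 245 and 240 in controls. The groups overlapped, and the 3 Prkcz cKO libraries differed from each other by less than any other group of any member (SD 0.30% of the mean). Its change was -4.4% in Prkci cKO (interval -11.7% to 3.5%) and -3.4% in Prkcz cKO (interval -11.3% to 5.2%), with adjusted p = 0.689 and 0.705 (limma).

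The other genes of GABA handling were taken from a list of 8. None passed in any comparison: 0 of 8 were higher or lower in Prkci cKO, in Prkcz cKO and between the knockouts, with 1, 0 and 2 genes at an unadjusted p under 0.05 (limma). The median log2 change was 0.01 in Prkci cKO and -0.02 in Prkcz cKO. Slc6a11, a GABA transporter of astrocytes, averaged 163 in Prkci cKO and 147 in controls (log2 change 0.15, adjusted p = 0.231). Aldh5a1, which breaks down a GABA metabolite, averaged 109 in Prkcz cKO and 121 in controls (log2 change -0.14, adjusted p = 0.424). Slc32a1, which loads GABA into synaptic vesicles and was chosen after its values were seen, averaged 83.3 in Prkci cKO, 93.3 in Prkcz cKO and 89.9 in controls.

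Striatal medium spiny neurons also make GABA with Gad1 and Gad2, so the markers of that tissue are given beside these genes. All 15 tested striatal markers had a negative log2 change in Prkci cKO against controls, 0 of 15 passed (13 at an unadjusted p under 0.05), and the median log2 change was -0.88. Their summed signal was 596 to 965 in Prkci cKO, 1043 to 2067 in Prkcz cKO and 1025 to 1586 in controls. Drd1a, a dopamine receptor of striatal neurons, chosen after its values were seen, averaged 19.4 in Prkci cKO, 38.8 in Prkcz cKO and 36.7 in controls. The highest striatal sum, 2067, was in Prkcz cKO replicate 3, the library that also had the highest Gad1. Gad2 was 231 in that library. It was 230 and 230 in Prkcz cKO replicates 1 and 2, where the striatal sums were 1045.5 and 1043. The part of striatal tissue in the values of Gad1 and Gad2 was not tested.

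Lhx6, on chromosome 2 (36081953 to 36105408), is required for interneurons of the medial eminence to migrate and mature. Its signal was 25.0, 28.9, 27.0 and 25.3 in Prkci cKO, 24.7, 27.8 and 25.5 in Prkcz cKO, and 28.4, 25.1, 27.2 and 24.3 in controls. The 3 groups covered almost the same range. The change was 1.1% in Prkci cKO (interval -8.7% to 11.9%) and -0.96% in Prkcz cKO (interval -11.3% to 10.5%), with adjusted p = 0.958 and 0.946 (limma). In the annotation the exons of Lhx6 overlap Gm27953, which is not a row of the deposited table.

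Further transcription factors and regulators of the interneuron lineage came from a list of 20, of which 18 could be tested. None passed in either direction in the 3 comparisons (limma), and 4, 1 and 4 had an unadjusted p under 0.05. The median log2 change was 0.02 in Prkci cKO and -0.04 in Prkcz cKO. It was positive for 10 of the 18 in Prkci cKO and for 7 in Prkcz cKO. In Prkci cKO 2 lay above every control and 0 below, beside 3.18% and 5.32% of all genes. In Prkcz cKO 0 lay above and 1 below, beside 5.16% and 6.72%. The genes named next all had negative changes. Sp9, a zinc finger factor, averaged 4.12 in Prkci cKO and 5.445 in controls (log2 change -0.35, adjusted p = 0.251). Zeb2, which directs young interneurons to the cortex and is also made by oligodendrocyte lineage cells, averaged 160 in Prkcz cKO and 192 in controls (log2 change -0.27, adjusted p = 0.0852). Sox6, a factor of medial eminence interneurons, averaged 26.2 in Prkcz cKO and 30.7 in controls (log2 change -0.24, adjusted p = 0.334).

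Pvalb, on chromosome 15 (78191114 to 78206400), encodes parvalbumin, the calcium buffer of fast-spiking basket and chandelier cells. Its signal was 42.8, 40.0, 39.6 and 44.2 in Prkci cKO, 49.5, 44.98 and 43.9 in Prkcz cKO, and 41.7, 41.5, 46.0 and 32.2 in controls. Control replicate 4 was the lowest library and Prkcz cKO replicate 1 the highest, and the groups overlapped. The change was 3.9% in Prkci cKO (interval -9.1% to 18.7%, adjusted p = 0.868). It was 14.9% in Prkcz cKO (interval -0.48% to 32.8%, limma adjusted p = 0.348). Without Control replicate 4 the log2 change was -0.05 in Prkci cKO and 0.10 in Prkcz cKO, where it was 0.06 and 0.20 with it.

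The list of further parvalbumin class markers held 12 genes, and 0 passed in any comparison (limma; 1, 0 and 3 at an unadjusted p under 0.05). Their median log2 change was 0.03 in Prkci cKO and 0.02 in Prkcz cKO. Tac1, a tachykinin precursor, averaged 9.355 in Prkci cKO and 16.3 in controls, without overlap (log2 change -0.78, limma adjusted p = 0.09999). The striatal list shares this gene.

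Among the neuropeptides, Sst, on chromosome 16 (23889573 to 23890958), encodes somatostatin, the inhibitory peptide of dendrite-targeting interneurons. Its signal was 115, 127, 131 and 115 in Prkci cKO, 122, 137 and 153 in Prkcz cKO, and 133, 116, 127 and 124 in controls. The Prkci cKO libraries overlapped the controls, and 2 of the 3 Prkcz cKO libraries exceeded every control. The change was -2.4% in Prkci cKO (interval -12.0% to 8.3%, adjusted p = 0.892). It was 9.3% in Prkcz cKO (interval -2.3% to 22.3%, limma adjusted p = 0.438). In Prkci cKO against Prkcz cKO the difference was -10.7% (interval -20.2% to -0.12%), which did not pass (adjusted p = 0.309). Without Prkcz cKO replicate 3 the log2 difference was -0.08 instead of -0.16.

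The list of further somatostatin class markers held 12 genes, of which 0 passed in any comparison (limma; 1, 0 and 1 at an unadjusted p under 0.05). The median log2 change was 0.03 in Prkci cKO and 0.02 in Prkcz cKO. Cort, the close relative of somatostatin, averaged 1.85 in Prkci cKO and 2.66 in controls (log2 change -0.44, adjusted p = 0.313). It averaged 3.49 in Prkcz cKO (log2 change 0.35, adjusted p = 0.409), and Prkci cKO and Prkcz cKO did not overlap (log2 difference -0.79, adjusted p = 0.102). Tac2, a tachykinin precursor, averaged 5.345 in Prkci cKO and 4.51 in controls (log2 change 0.23, adjusted p = 0.414), and Grik1, a kainate receptor subunit, 18.4 in Prkcz cKO and 16.8 in controls (log2 change 0.13, adjusted p = 0.427).

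Vip, on chromosome 10 (5639218 to 5647617), encodes vasoactive intestinal peptide and marks interneurons that mostly inhibit other interneurons. Its signal was 42.0, 38.8, 47.2 and 44.9 in Prkci cKO, 42.8, 40.7 and 42.7 in Prkcz cKO, and 31.2, 36.0, 45.6 and 39.4 in controls. The controls spread more widely than either knockout (SD 15.9% of the mean, where it was 8.5% in Prkci cKO and 2.8% in Prkcz cKO), and only Prkci cKO replicate 3 exceeded the highest control. The change was 14.1% in Prkci cKO (interval -0.94% to 31.5%, limma adjusted p = 0.461). It was 11.4% in Prkcz cKO (interval -4.4% to 29.8%, adjusted p = 0.492). Control replicate 1 was the lowest library: without it the log2 change was 0.10 in Prkci cKO and 0.07 in Prkcz cKO, where it was 0.19 and 0.16 with it. Against the Pkcz f/f controls alone it was 0.02 in Prkci cKO and -0.01 in Prkcz cKO.

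Npy, on chromosome 6 (49822710 to 49829507), encodes neuropeptide Y of neurogliaform and some somatostatin cells. Its signal was 84.5, 70.5, 81.4 and 75.3 in Prkci cKO, 83.9, 79.6 and 96.9 in Prkcz cKO, and 86.8, 72.1, 87.7 and 73.1 in controls. Only Prkcz cKO replicate 3 lay above every control. The change was -2.3% in Prkci cKO (interval -13.6% to 10.5%) and 8.6% in Prkcz cKO (interval -4.9% to 24.1%), with adjusted p = 0.917 and 0.552 (limma).

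Cck, on chromosome 9 (121489824 to 121495694), encodes cholecystokinin, a peptide of some basket cells and also of pyramidal cells. Its signal was 204, 183, 198 and 200 in Prkci cKO, 196, 181 and 225 in Prkcz cKO, and 181, 172, 197 and 195 in controls. The groups overlapped, and the highest library was again Prkcz cKO replicate 3. The change was 5.3% in Prkci cKO (interval -4.7% to 16.4%) and 7.5% in Prkcz cKO (interval -3.5% to 19.7%), with adjusted p = 0.718 and 0.517 (limma).

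The upstream sequences of these 4 peptide genes are shown because transcription of Sst and Vip is a classic target of cyclic AMP and neuronal activity, through the cyclic AMP response element TGACGTCA or its core TGACGT. The sequences are from RefSeq (GRCm38.p6), run 5′ to 3′ on the gene's own strand, and end before the transcription start except for Sst, where the 30 bases around the element are given. Capitals mark TGACGT on either strand, or the full TGACGTCA that contains it.
Sst (chr16:23890874-23890903, minus strand): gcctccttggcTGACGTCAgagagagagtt
Vip (chr10:5639068-5639217, plus strand): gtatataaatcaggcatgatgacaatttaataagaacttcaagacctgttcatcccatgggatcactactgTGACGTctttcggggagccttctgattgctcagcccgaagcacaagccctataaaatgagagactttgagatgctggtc
Npy (chr6:49822560-49822709, plus strand): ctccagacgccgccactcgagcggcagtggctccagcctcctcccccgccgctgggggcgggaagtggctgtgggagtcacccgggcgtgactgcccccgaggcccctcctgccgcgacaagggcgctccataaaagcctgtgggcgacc
Cck (chr9:121495695-121495844, minus strand): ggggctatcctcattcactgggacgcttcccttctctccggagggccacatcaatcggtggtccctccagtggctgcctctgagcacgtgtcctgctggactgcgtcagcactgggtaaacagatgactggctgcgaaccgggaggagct

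The search covered 250 bases upstream of the start, both strands, in the 9 members that the table holds. The full TGACGTCA was found in Sst, 48 bases before the start, and in 1.77% of all 27025 genes with a sequence. Its core TGACGT was found in Sst and, 79 bases before the start, in Vip, and in 7.29% of all genes. The E-box CACGTG was found upstream of Cck and Reln (6.86% of all genes), and the homeobox core TAATTA in no member (5.65%). A match is a description of letters and not a measured binding site.

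Genes of the immediate early class, induced by neuronal activity among other stimuli, are given beside the peptides. Of 13 tested, 7 were lower in Prkci cKO and 8 in Prkcz cKO against controls at an adjusted p under 0.05 (limma), with median log2 changes of -1.09 and -1.07. Junb averaged 23.5 in Prkci cKO and 53.8 in controls (log2 change -1.19, adjusted p = 0.00226), and Fos 8.25 in Prkcz cKO and 37.7 in controls (log2 change -2.12, adjusted p = 0.00964). The summed signal of the list was 465 to 550 in Prkci cKO, 351 to 532 in Prkcz cKO and 601 to 1252 in controls. Their part in the values of Sst and Vip was not tested.

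**Figure D2:**
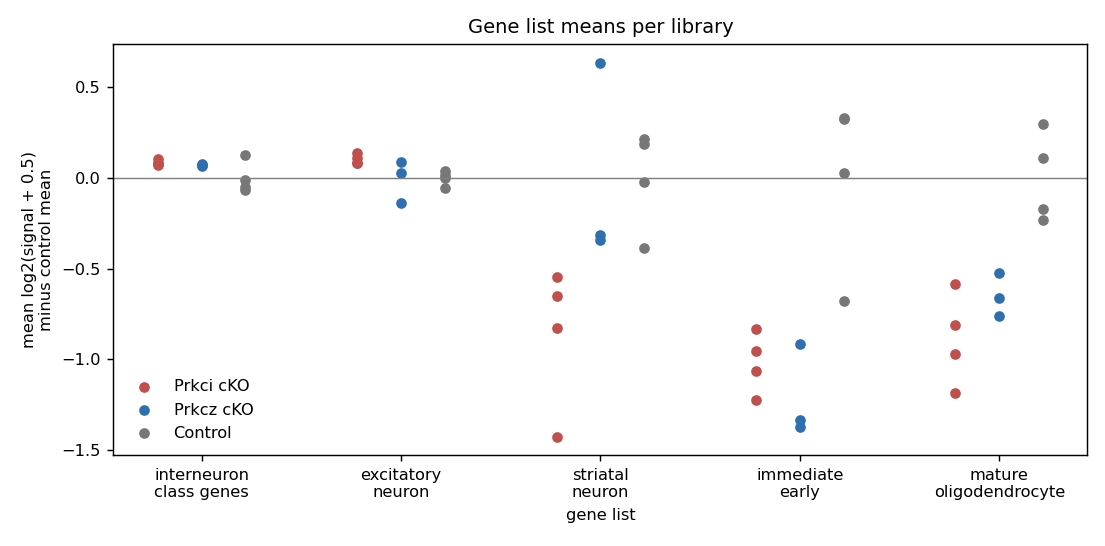
Mean log2(signal + 0.5) of each gene list per library, minus the mean of the controls (vertical axis), for Prkci cKO, Prkcz cKO and Control; each point is a library. The 10 interneuron class genes stay within a narrow band in all groups, while immediate early and mature oligodendrocyte genes lie lower in both knockouts and the striatal list spreads widely, with Prkcz cKO replicate 3 highest.

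The members that spread most were Reln and Htr3a. Reln, on chromosome 5 (21884454 to 22344702), encodes reelin, which guides neuronal positioning in the embryo and is made in the adult cortex by superficial and caudal eminence interneurons. Its signal was 108.5, 97.3, 94.1 and 97.2 in Prkci cKO, 78.4, 83.5 and 53.9 in Prkcz cKO, and 61.1, 81.2, 100.2 and 69.9 in controls. All 4 Prkci cKO libraries lay above every Prkcz cKO library and above 3 of the 4 controls. Control replicate 3, labelled Pkcz f/f, reached into the Prkci cKO range. Means were 99.3 ± 6.33 (SD, n = 4) in Prkci cKO, 71.9 ± 15.8 (SD, n = 3) in Prkcz cKO and 78.1 ± 16.8 (SD, n = 4) in controls.

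The change of Reln was 28.9% in Prkci cKO against controls (log2 change 0.37, SE 0.144, interval 4.0% to 59.8%), with an unadjusted p of 0.0237 in the limma fit and an adjusted p of 0.312. It was -7.9% in Prkcz cKO (interval -26.9% to 16.2%, adjusted p = 0.745), and the log2 change of -0.12 turned to 0.08 without Prkcz cKO replicate 3. In Prkci cKO against Prkcz cKO it was 39.9% (log2 difference 0.48, SE 0.156, interval 10.98% to 76.5%), with an unadjusted p of 0.00781, the smallest of any member, and an adjusted p of 0.194. Non-overlap of these groups was found for Reln and Gad1 among the 10 members and for 13.8% of all genes. Without Prkcz cKO replicate 3, the shallowest library, the log2 difference was 0.29 (adjusted p = 0.711). For Prkci cKO against controls it was 0.24 with the Pkcz f/f controls alone, and 0.49 (adjusted p = 0.0983) without Control replicate 3. In the annotation the exons of Reln overlap Gm10475, which is not a row of the deposited table.

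The summed striatal list is given beside Reln: it was 852, 596, 965 and 788 in the 4 Prkci cKO libraries. It was 1046, 1043 and 2067 in Prkcz cKO and 1561, 1025, 1350 and 1586 in controls, and the library with the highest sum had the lowest Reln. Control replicate 3, with Reln at 100.2, had a sum of 1350. The sums of 4 other cell type marker lists also did not overlap between the knockouts, nor did those of the GABA handling and receptor lists. Among single genes 13.8% did not overlap in this comparison. The GABA handling sums were narrowly apart, at 1545 or more in Prkci cKO and 1539 or less in Prkcz cKO. Sums of the pan-neuronal, mature oligodendrocyte, oligodendrocyte precursor, Cajal-Retzius, choroid plexus and interneuron class lists overlapped. Endothelial markers summed to 208 to 226 in Prkci cKO, 151 to 160 in Prkcz cKO and 185 to 203 in controls, and astrocyte markers to 5298 to 5990, 3852 to 5086 and 5221 to 5797 in the same order of groups. Excitatory markers summed to 8492 to 8833 in Prkci cKO, 7832 to 8189 in Prkcz cKO and 7930 to 8573 in controls, and microglial markers to 376 to 407, 357 to 372 and 368 to 399. Markers of Cajal-Retzius cells, the embryonic source of reelin, were few: Trp73 averaged 1.13 in Prkci cKO, 0.95 in Prkcz cKO and 0.90 in controls, and only 3 of 8 could be tested, with 0 called in any comparison (limma; 0 at an unadjusted p under 0.05). The part of these cell types in the values of Reln was not tested.

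Htr3a, on chromosome 9 (48899213 to 48911099), encodes a subunit of the serotonin-gated ion channel and marks caudal eminence interneurons. It was the lowest of the 10 genes at 7.15, 9.38, 6.51 and 7.56 in Prkci cKO, 6.76, 6.89 and 6.43 in Prkcz cKO, and 6.21, 6.44, 6.48 and 5.96 in controls. Every Prkci cKO library lay above every control, a pattern of either direction shared by 8.49% of all genes, although the lowest, 6.51, exceeded the highest control by little. The change was 19.4% in Prkci cKO (log2 change 0.26, SE 0.0997, interval 2.9% to 38.6%), with an unadjusted p of 0.0227 and an adjusted p of 0.305 (limma). It was 6.2% in Prkcz cKO (interval -9.5% to 24.7%, adjusted p = 0.727). Without Prkci cKO replicate 2, the highest library, the log2 change was 0.16 (adjusted p = 0.632). At the effective depths Htr3a rests on about 95 to 213 reads per library, fewest in Prkcz cKO replicate 3, whereas Gad1 rests on 7009 reads or more.

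Markers of the Vip and Htr3a classes other than the members came from a list of 14, of which 12 could be tested and 0 passed in any comparison (limma; 2, 1 and 3 at an unadjusted p under 0.05). The median log2 change was 0.00 in Prkci cKO and 0.00 in Prkcz cKO. Chat, the acetylcholine synthesis enzyme of some Vip cells and of striatal interneurons, averaged 0.49 in Prkci cKO and 1.39 in controls (log2 change -0.93, adjusted p = 0.0591). Penk, the enkephalin precursor, averaged 66.85 in Prkci cKO and 148 in controls (log2 change -1.22, adjusted p = 0.0832), and 165 in Prkcz cKO. Penk, with Tac1 and Pdyn of the other class lists, is also a member of the striatal list, so these values are not separate from it. Cp, ceruloplasmin, averaged 10.5 in Prkcz cKO and 14.9 in controls, without overlap (log2 change -0.46, adjusted p = 0.177), and Sncg, a synuclein, 1.33 and 1.03 (log2 change 0.24, adjusted p = 0.569).

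**Figure D3:**
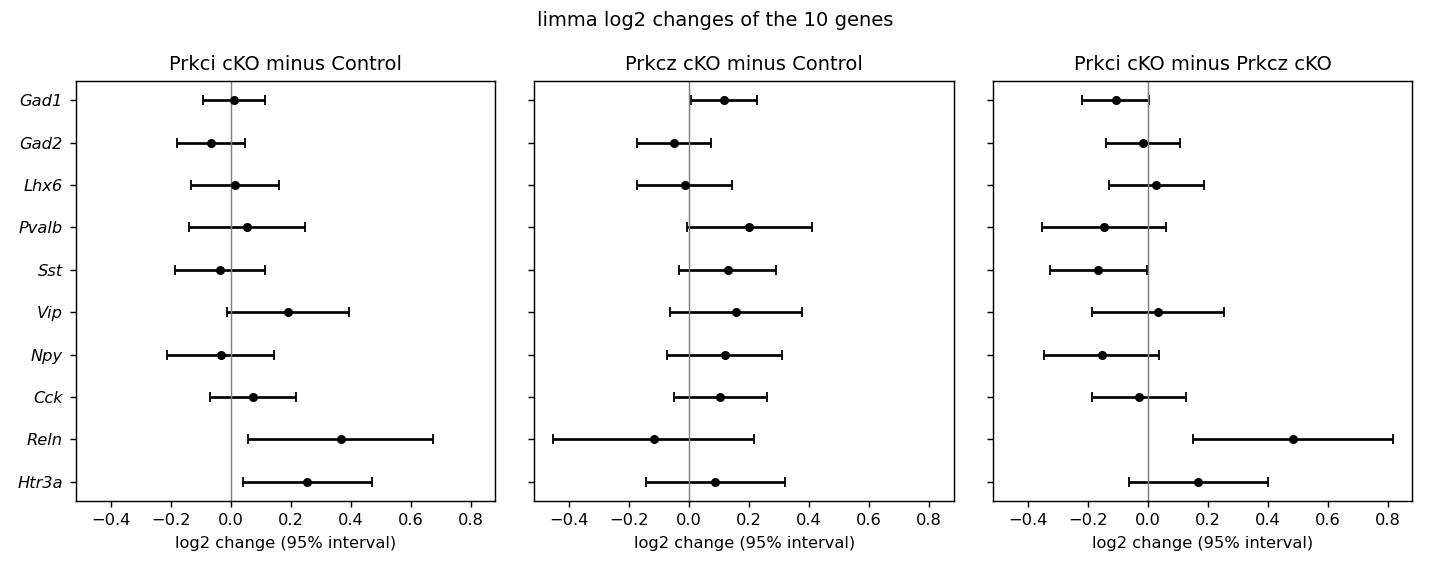
limma log2 change (horizontal axis) with its 95% interval for each of the 10 genes in Prkci cKO minus Control, Prkcz cKO minus Control and Prkci cKO minus Prkcz cKO; the grey line is 0. Most intervals include 0, those of Reln are the widest, and no gene passed after adjustment over 14330 genes.

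The receptors of the ligands among the members came from a list of 15, of which 13 could be tested. None passed in any comparison (limma; 2, 1 and 2 at an unadjusted p under 0.05), with median log2 changes of 0.06 in Prkci cKO and -0.03 in Prkcz cKO. Of the somatostatin receptors, Sstr1 averaged 53.9 in Prkci cKO and 47.9 in controls (log2 change 0.17, adjusted p = 0.196), and Sstr2 10.9 and 13.3 (log2 change -0.27, adjusted p = 0.270). In both, Prkci cKO and control libraries did not overlap. Of the reelin receptors, Lrp8 averaged 93.6 in Prkcz cKO and 103 in controls (log2 change -0.15, adjusted p = 0.330), and Vldlr 110 and 119 (log2 change -0.12, adjusted p = 0.347). Lrp8 averaged 112 in Prkci cKO, above every Prkcz cKO library (log2 difference 0.27, adjusted p = 0.134). Dab1, the adaptor that carries the reelin signal into the cell and was chosen after its values were seen, averaged 124 in Prkci cKO, 118 in Prkcz cKO and 119 in controls.

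Over the 6 lists of GABA handling, lineage factors, class markers and receptors, 75 of 81 genes could be tested and 0 passed in any comparison (limma). At an unadjusted p under 0.05 there were 11 in Prkci cKO, 3 in Prkcz cKO and 15 between the knockouts. The shares over all genes were 12.1%, 15% and 16%. The median log2 change was 0.01 in Prkci cKO and -0.01 in Prkcz cKO, next to 0.00 and -0.01 over all genes. By contrast, all 12 mature oligodendrocyte genes tested had a negative log2 change in both knockouts against controls. The medians were -0.87 in Prkci cKO and -0.63 in Prkcz cKO. At an adjusted p under 0.05 (limma), 11 of 12 were lower in Prkci cKO and 4 of 12 in Prkcz cKO. The shares of all genes lower at that threshold were 1.51% and 0.621%.

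The levels of the 10 genes were compared per kilobase of exon, since longer transcripts collect more reads. On that scale the mean over 11 libraries was 176 for Sst, 167 for Cck, 143 for Npy, 98.4 for Gad1, 40.7 for Pvalb, 40.5 for Gad2, 26.8 for Vip, 7.19 for Reln, 7.11 for Lhx6 and 3.31 for Htr3a. The short peptide messages of Sst, Cck and Npy therefore stood highest. Neighbours in this order kept their places in all 11 libraries with 3 exceptions: Sst was above Cck in 9, Pvalb above Gad2 in 8 and Reln above Lhx6 in 7. Some places depend on the length used. With the median length of coding transcripts (1705 bases for Gad1) in place of all exons (4365 bases), Gad1 was at 252 and stood first. Cck at 248 then stood above Sst at 176, and Lhx6 at 7.92 above Reln at 7.45.

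**Figure D4:**
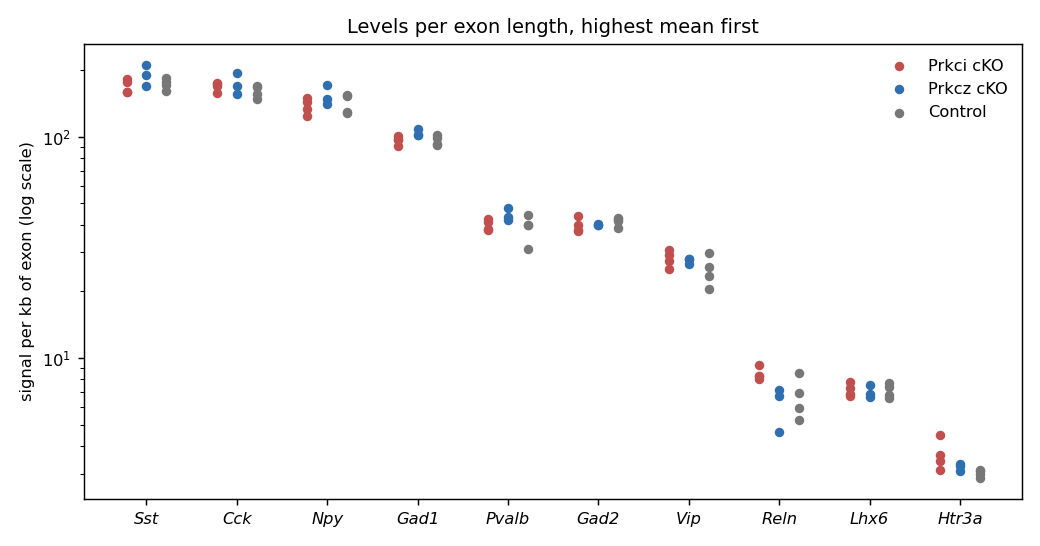
Signal per kilobase of exon (vertical axis, log scale) of the 10 genes in each library, ordered by their mean over 11 libraries, with Prkci cKO, Prkcz cKO and Control side by side. Levels run from 176 for Sst down to 3.31 for Htr3a, and the distances between most genes exceed those between groups.

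The members also varied unequally between animals. The SD over all 11 libraries was 5.2% of the mean for Gad2, 5.3% for Gad1 and 6.1% for Lhx6, the 3 genes shared by many interneurons. It was 7.5% for Cck, 8.8% for Sst, 9.8% for Npy, 10.4% for Pvalb and 11.2% for Vip. It was 13.6% for Htr3a and 20.5% for Reln, whose highest library was 2.01 times its lowest. Prkcz cKO replicate 3 had the highest value of 4 members (Gad1, Sst, Npy and Cck) and the lowest of Reln. No other library held the highest place for more than 2 members. Without that library the log2 change in Prkcz cKO was 0.09 for Gad1 (adjusted p = 0.718), 0.05 for Sst, 0.04 for Npy and 0.02 for Cck, against 0.12, 0.13, 0.12 and 0.10 with it.

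**Figure D5:**
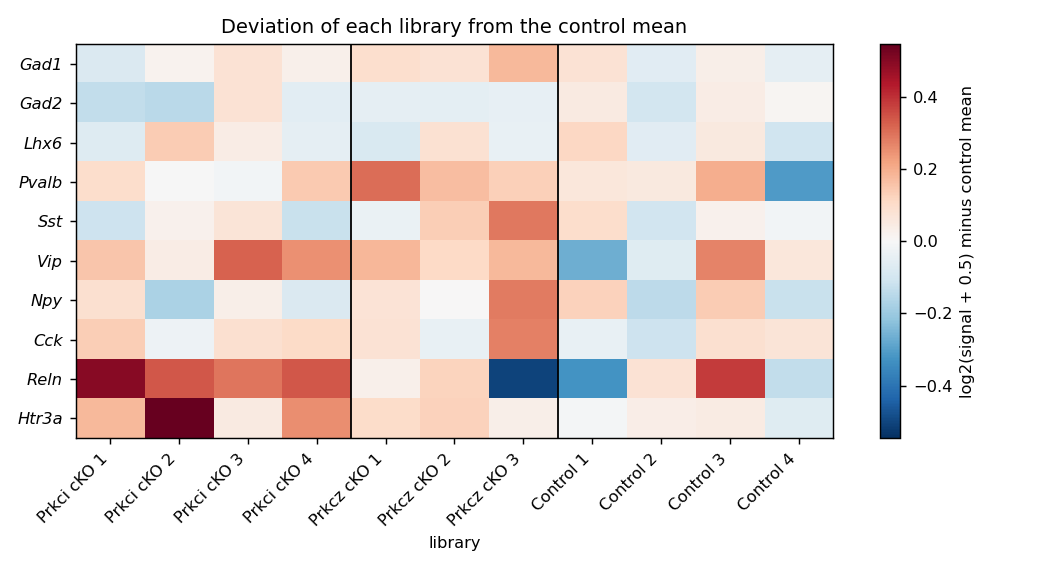
Difference of log2(signal + 0.5) from the control mean (colour, red higher and blue lower) for the 10 genes in each library, with Prkci cKO, Prkcz cKO and Control libraries from left to right. Within its own row Reln is reddest in the 4 Prkci cKO libraries and Control replicate 3, and bluest in Prkcz cKO replicate 3. In that last library Gad1, Sst, Npy and Cck are at their highest. Htr3a in Prkci cKO replicate 2 is redder than Reln in any library.

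Among the 45 pairs of members, log2 values over the 11 libraries were most alike for Gad1 and Sst (Pearson r = 0.82, or 0.74 after removing group means) and for Npy and Cck (r = 0.65 and 0.68). They were most opposed for Gad2 and Htr3a (r = -0.66 and -0.62) and for Sst and Reln (r = -0.65 and -0.56). In each of these pairs a single library was extreme for both genes. Prkcz cKO replicate 3 was highest for Gad1, Sst, Npy and Cck and lowest for Reln. Prkci cKO replicate 2 was highest for Htr3a and lowest for Gad2. The r values without these libraries were not computed. The r values are descriptions over libraries that share genotype groups but differ in depth and in the sums of cell type markers. In a search of 12133 genes, the closest to Gad1 were Ubl7 and Eno2 (r = 0.95 each). Over only 11 libraries the best of so many genes can reach a high r by chance, and no chance level was computed. The closest to Sst were Nrsn2 (r = 0.96) and Pi4k2a (r = 0.94), and the closest to Reln was Nfib (r = 0.94). The closest to Gad2 were Mylk and Dcun1d3 (r = 0.93 and 0.92), and those to Cck were Tiam2 and Nars2 (r = 0.95 and 0.94). Lhx6 had the weakest closest matches, S1pr3 and Ccnjl (r = 0.85 and 0.84). The r of the closest gene in this search was lowest for Lhx6.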

How the data were processed

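RNA of 11 cortical punches was sequenced as a library each. Per the submitters' processing notes, FastQC, Trim Galore, STAR, RSEM and edgeR were used with GRCm38; their versions, the annotation and the strand setting are not known here. The authors deposited a normalized expression signal for 16228 genes, which is not a count, so no count test was run. Libraries were checked for repeats: no pair shared over 0.44% of its values.

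The filter kept 14330 genes whose signal reached 1 in 3 or more libraries. log2(signal + 0.5), a scale that understates changes of low genes, was fitted with limma 3.58.1 in R 4.3.3 (variance trend, all 11 libraries, 8 residual degrees of freedom, no covariate), two-sided, with Benjamini-Hochberg adjustment over all genes and a threshold of 0.05. The fit was tested on simulated data. Depth was estimated from values under 0.5, of which 86.2% to 89.8% lay within 0.005 of a multiple of a step per library; whole reads were not recovered.

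Positions and exon lengths are from GENCODE M21 (GRCm38). Named genes are the 10 members, the 2 genes of each list with the smallest p in each knockout, and the 2 genes most like each member whose mean log2 value reaches 2; not all of these are printed, and genes outside the rule are marked as chosen after their values were seen. Members and lists were chosen with earlier results of these data known. Replicate numbers were not treated as pairs in the main fit, and whether they pair the libraries is not known. Figures were drawn with matplotlib 3.10.9.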

Additional observations from a re-analysis of the deposited data

How the results depend on the processing

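No interneuron gene passed under any of 22 alternatives (650 fits, adjusted p from 0.0983 to 0.9995), and 0 members were called in every setting. The estimate changed sign in 31 of those fits, in 12 of 30 gene and comparison pairs, none of them past the threshold. Counts over all genes moved more. For Prkci cKO against controls the count was 230, and 346 with array weights or 132 against Pkcz f/f controls. Leaving out single libraries gave 94 to 350: 147 and 94 without Prkci cKO replicates 1 and 2, and 350 without Prkcz cKO replicate 3. For Prkcz cKO against controls it was 93, and 183 with scaling to pan-neuronal genes, 30 without a variance trend, 29 with only the compared groups fitted and 59 against Pkcz f/f controls. Leaving out libraries gave 12 to 111: 27 and 50 without Control replicates 1 and 2, 52 and 44 without Prkci cKO replicates 1 and 2, and 12 and 13 without Prkcz cKO replicates 2 and 3. Between the knockouts it was 43, and 112 with array weights. Leaving out libraries gave 10 to 151: 10, 14 and 19 without Prkci cKO replicates 1, 2 and 4, and 151 and 16 without Prkcz cKO replicates 1 and 3. The cause was not tested. Same-numbered libraries correlated at -0.19 to 0.20 in their deviations from group means. Libraries with different numbers were not compared in this way, so whether the numbers pair the libraries was not settled. With a replicate block the count between the knockouts was 73, and no member was called. Depth limits Htr3a most.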

Other observations

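The ratio of Gad1 to Gad2 signal within a library, which does not depend on how the library was scaled, was looked at after the values were seen. It averaged 1.85 ± 0.088 (SD, n = 4) in Prkci cKO, 1.97 ± 0.067 (SD, n = 3) in Prkcz cKO and 1.76 ± 0.054 (SD, n = 4) in controls. The ranges were 1.76 to 1.97 in Prkci cKO, 1.93 to 2.05 in Prkcz cKO and 1.69 to 1.80 in controls, so the 3 Prkcz cKO libraries lay above every control, and Prkci cKO overlapped both. In two-sided exact permutation tests of the mean log2 ratio p was 0.114 for Prkci cKO against controls and 0.0571 for Prkcz cKO against controls, the smallest that 3 against 4 libraries allow. It was 0.171 between the knockouts, and each of the 3 was 0.171 after Benjamini-Hochberg adjustment. No difference passed, but with so few libraries no adjusted p could have fallen under 0.05, so the tests decide nothing. No library of a group of 4 stood apart from the others of its group in any of the 10 genes by Dixon's criterion (20 groups examined). In groups this small the criterion flags only a gap that fills most of the range. It did not flag Pvalb in Control replicate 4, at 32.2 where the other controls were 41.5 to 46.0. Prkcz cKO, with 3 libraries, was not examined, so nothing is said of its replicate 3.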
